A study of Mus musculus with 8 samples.

Results

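The genes of this account mark the lining of blood vessels in the pancreatic lymph node. They are 8 genes found in most blood vessel endothelium (Vwf, Tek, Tie1, Pecam1, Emcn, Plvap, Cdh5 and Kdr) and 2 genes of high endothelial venules (Glycam1 and Madcam1). They were chosen by name: every probe on the arrays, other than control spots, that carried one of these gene names was taken. That gave 16 probes, of which 14 passed a filter on dim probes, and all 10 genes are among the 18411 genes tested. The remaining 2 probes, 1 of Vwf and 1 of Kdr, were not well above background in either colour on any array.

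The node was sampled in BALB/c mice that lack Deaf1, a transcription factor, and in wild-type littermates of the same strain. Each of 8 arrays held RNA of 1 knockout mouse, labelled with Cy5, and of pooled wild-type littermates of equal age, labelled with Cy3. There were 2 arrays of knockout mice aged 4 weeks, each against a pool of 2 mice, 3 arrays at 12 weeks and 3 at 30 weeks, each against a pool of 3 mice. Total RNA was extracted from whole nodes, so the other cells of the node and any tissue taken with it are in every sample. No array had the dyes exchanged and none set a wild-type mouse against the pool. A dye bias of a probe and the spread between wild-type mice are therefore in no test.

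High endothelial venules are the specialised vessels through which lymphocytes leave the blood and enter a lymph node. Their cells make sulphated sialomucins, Glycam1 among them, that bind lymphocytes, and in nodes that drain the gut and nearby organs they also carry the addressin Madcam1, which binds the integrin formed by Itga4 and Itgb7. Around these venules lie ordinary capillaries and veins, whose cells share the receptors Tek, Tie1 and Kdr and the junction proteins Pecam1 and Cdh5. Signals through the lymphotoxin beta receptor keep high endothelial venules in their specialised state in mice.

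Each array measured a gene with probes of 60 bases that bind its labelled RNA. The probes of the 2 venule genes are shown because the results on lymphocyte entry genes rest on a single probe each. Those of Tie1 and Pecam1 are shown as the members lower at 30 weeks with the smallest p and with repeated spots. All are given 5′ to 3′ in the sense of the messenger RNA, as the scanner files print them.
Glycam1: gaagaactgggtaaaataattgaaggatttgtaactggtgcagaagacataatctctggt
Madcam1: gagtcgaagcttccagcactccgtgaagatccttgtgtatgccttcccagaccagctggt
Tie1: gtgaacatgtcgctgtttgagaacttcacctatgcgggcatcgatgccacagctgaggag
Pecam1: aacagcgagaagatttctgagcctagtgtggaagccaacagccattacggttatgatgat

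On the mm8 build of the mouse genome, the Glycam1 probe lies at chr15:103390942-103391001 on the minus strand and the Madcam1 probe at chr10:79068267-79068578 on the plus strand. The Tie1 probe lies at chr4:117969459-117969518 and the Pecam1 probe at chr11:106497165-106499018, both on the minus strand. The positions of the Madcam1 and Pecam1 probes span 312 and 1854 bases, more than the length of the probe, so both probes join sequence that is apart in the genome, as exons are. Of the probe bases, 36.7% are G or C for Glycam1, 55% for Madcam1, 53.3% for Tie1 and 45% for Pecam1.

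Of all probes, 46.8% to 71.4% lay well above background in the knockout channel and 37.2% to 62.6% in the wild-type channel, and no spot was saturated. The number of arrays limits the precision. Whether the arrays of 1 age were hybridised with the same pool is not stated in the labels, and if they were, each age has 1 pool only. Deaf1 had ratios of −0.17, 0.34 and 0.10 at 4, 12 and 30 weeks, but since the deleted part of the gene is not stated, its probe checks no genotype. The arrays stand apart in more than age. On replicate 2 of 12 weeks the knockout and its pool differed in Xist (12.92 against 7.60 on the log2 intensity scale), and on replicate 2 of 30 weeks 6 genes of pancreatic acinar cells had a median log2 ratio of 4.13, against −4.08 and −4.28 on the other two arrays of that age. Calls of members that changed without either array are given without it as well.

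Unless a level is named, the values given are ratios on the log2 scale, the knockout node over its wild-type pool. A level is the normalised log2 intensity of 1 probe, which may be compared between samples but not between probes. A gene is said to have risen or fallen where its adjusted p was under 0.05 in limma's moderated test with Benjamini-Hochberg adjustment over all 18411 genes. In whole nodes, fewer cells of a type and less RNA per cell cannot be told apart.

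Calls among the 10 genes were most frequent at 30 weeks, when calls over all genes were most frequent too. At 4 weeks 1 of the 10 genes passed, Emcn, which rose, against 22.7% of all genes called in either direction, 15.3% higher and 7.38% lower. At 12 weeks 2 passed, Tie1 and Plvap, both lower, against 2.61% of all genes called, 1.23% higher and 1.37% lower. At 30 weeks 6 passed: Tie1, Plvap, Tek, Pecam1 and the addressin Madcam1 fell and Cdh5 rose, against 39.1% of all genes called, 20.7% higher and 18.4% lower. With each array left out in turn, 0 to 3 members passed at 4 weeks, 0 to 2 at 12 weeks and 5 to 7 at 30 weeks. The median ratio of the 8 pan-endothelial genes was 0.22 at 4 weeks, −0.07 at 12 weeks and −0.48 at 30 weeks, beside medians over all genes of 0.02, 0.02 and 0.03.

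The size of the ratios depended on the scaling. When arrays were centred on their median in place of the intensity-dependent loess curve, the median over the tested genes was itself 0.49 at 4 weeks, 0.41 at 12 weeks and 0.15 at 30 weeks. Relative to that median, Emcn was 0.74 at 4 weeks. At 12 weeks Tie1 was −0.29 and Plvap −0.04 relative to it, with ratios of 0.12 and 0.37 before it was taken off. At 30 weeks Madcam1 was −0.89 relative to it, Tie1 −0.66, Tek −0.63, Pecam1 −0.46, Plvap −0.27 and Cdh5 0.71, each on the side of 0 it had after loess. Tested against 0, with no median taken off, the calls of Pecam1 (−0.30; limma, adjusted p = 0.256) and Plvap (−0.11; limma, adjusted p = 0.639) at 30 weeks were lost under that scaling.

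**Figure D1:**
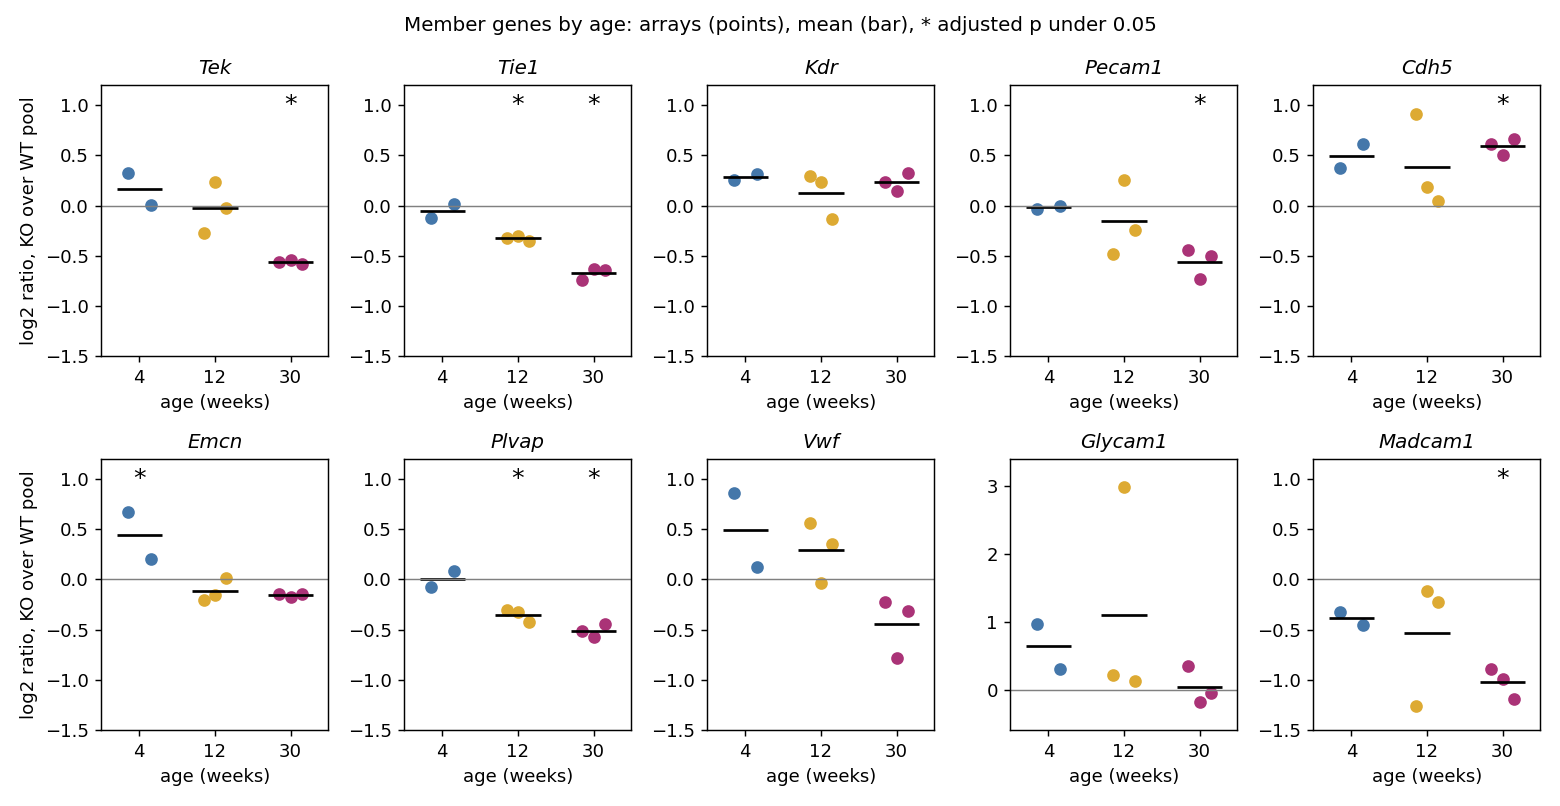
Log2 ratio of knockout over wild-type pool (vertical axis) by age in weeks (horizontal axis) for the 10 genes, with 1 point for each array, a bar at the mean and an asterisk where the adjusted p was under 0.05. The Glycam1 panel has a wider vertical axis than the others. Tie1 and Plvap lie below 0 on all 6 arrays of 12 and 30 weeks, and Glycam1 has 1 array at 2.98.

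Of the receptors of the angiopoietin system, Tie1 fell at 30 weeks, and Tek fell by its brightest probe only. Tie1, the partner receptor of Tek, had ratios of −0.12 and 0.01 on the 2 arrays of 4 weeks, −0.32, −0.30 and −0.35 on those of 12 weeks and −0.74, −0.63 and −0.64 on those of 30 weeks. The 3 ages did not overlap. The mean was −0.32 ± 0.06 (SE of the fit) at 12 weeks (limma, adjusted p = 0.0369) and −0.67 ± 0.06 at 30 weeks, a fold of 0.629 (limma, adjusted p = 0.000676). The call at 12 weeks was lost without replicate 1 or 3 of that age (limma, adjusted p = 0.132 and 0.098) or without any 1 array of 30 weeks, the highest of those being 0.0807 in limma's test. As levels, knockout nodes of 30 weeks had 7.81, 7.85 and 7.90, against 8.55, 8.48 and 8.53 in the pools. Every knockout level lay below every pool level at that age.

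Tek, the receptor of the angiopoietins, passed at 30 weeks only. Its brightest probe gave 0.32 and 0.01 at 4 weeks, −0.28, 0.24 and −0.03 at 12 weeks and −0.56, −0.55 and −0.58 at 30 weeks. The last had a spread (SD) of 0.02 around a mean of −0.56 (limma, adjusted p = 0.00346), while the arrays of 12 weeks lay on both sides of 0 (limma, adjusted p = 0.914). A second Tek probe, of a clone sequence elsewhere on chromosome 4, read otherwise at 30 weeks, with 0.26, 0.21 and 0.23. That probe was dim, with levels of 6.49 to 6.84 there, against 5.94 to 6.12 for the Vwf probe that stayed at background. With the mean of both probes the ratio of Tek at 30 weeks was −0.17 and no longer passed (limma, adjusted p = 0.143).

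Kdr, the main receptor of vascular endothelial growth factor A, passed at no age and lay mostly above its pool. Its ratios were 0.25 and 0.31 at 4 weeks, 0.29, 0.23 and −0.13 at 12 weeks and 0.24, 0.15 and 0.32 at 30 weeks, above 0 on 7 of the 8 arrays. The adjusted p-values in limma's test were 0.0941, 0.376 and 0.0628. The 95% interval at 30 weeks ran from 0.04 to 0.44, entirely above that of Tie1, which ran from −0.80 to −0.53. The brightest probe of Kdr and that of Pecam1 were each printed on 10 spots per array, and the SD over the spots used was 0.02 to 0.07 on the log2 scale.

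The junction genes parted. Pecam1, an adhesion molecule of endothelial junctions that platelets and leukocytes also carry, had ratios of −0.03 and 0.00 at 4 weeks, −0.48, 0.25 and −0.24 at 12 weeks and −0.44, −0.73 and −0.50 at 30 weeks. The arrays of 30 weeks overlapped with those of 12 weeks but not with those of 4 weeks, and their mean was −0.56 ± 0.12 (SE; limma, adjusted p = 0.00898). The positive array of 12 weeks was the one that differed from its pool in Xist. Without it and replicate 2 of 30 weeks, Pecam1 was −0.36 at 12 weeks (limma, adjusted p = 0.0406) and −0.47 at 30 weeks (limma, adjusted p = 0.0055). Without replicate 2 of 30 weeks alone, the adjusted p at 30 weeks was 0.0517. A second Pecam1 probe, of a clone sequence, gave −0.15, −0.10 and 0.02 at 30 weeks.

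Cdh5, the cadherin that seals junctions between endothelial cells, was the only member that rose at 30 weeks. The ratios of its brighter probe were 0.37 and 0.61 at 4 weeks, 0.91, 0.18 and 0.05 at 12 weeks and 0.62, 0.50 and 0.67 at 30 weeks, above 0 on all 8 arrays. The mean at 30 weeks was 0.60 ± 0.15 (SE; limma, adjusted p = 0.0132). A second probe of the same transcript, 660 bases upstream, did not follow: it read 0.01, −0.14 and −0.06 at 30 weeks. With the mean of both probes, Cdh5 was 0.27 at 30 weeks and did not pass (limma, adjusted p = 0.0946). Without replicate 1 or replicate 3 of 30 weeks the adjusted p was 0.065 or 0.0745, with a ratio of 0.58 or 0.56.

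Among the genes of the vessel surface, Plvap fell at both later ages. It encodes the protein of the diaphragms that close the pores and caveolae of endothelial cells. Its ratios were −0.07 and 0.09 at 4 weeks, −0.30, −0.33 and −0.43 at 12 weeks and −0.52, −0.58 and −0.44 at 30 weeks, both later ages lying below the first. The mean was −0.35 ± 0.06 at 12 weeks (SE; limma, adjusted p = 0.0363) and −0.51 ± 0.06 at 30 weeks (SE; limma, adjusted p = 0.00114). As for Tie1, the call at 12 weeks was lost without replicate 1 or 3 of that age (limma, adjusted p = 0.127 and 0.101) or without any 1 array of 30 weeks (limma, adjusted p of up to 0.0777). The levels of the knockout nodes at 30 weeks were 11.52, 11.45 and 11.62, and those of the pools 12.03, 12.03 and 12.07.

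Emcn, a sialomucin of capillary and venous endothelium, was the member that rose at 4 weeks, with 0.67 and 0.21 on the 2 arrays and a mean of 0.44 ± 0.11 (SE; limma, adjusted p = 0.0234). Without the first of these arrays the value was 0.21 and did not pass (limma, adjusted p = 0.422). At 12 weeks it had −0.21, −0.16 and 0.01, and at 30 weeks −0.14, −0.18 and −0.15, which did not pass (limma, adjusted p = 0.205).

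Vwf, the clotting factor that endothelial cells and platelets store, passed at no age. The ratios of its brightest probe were 0.86 and 0.12 at 4 weeks, 0.56, −0.04 and 0.35 at 12 weeks and −0.22, −0.78 and −0.31 at 30 weeks (limma, adjusted p = 0.125, 0.307 and 0.0685). All 3 arrays of 30 weeks lay below all those of the younger ages. Without replicate 2 of 30 weeks the mean at 30 weeks, −0.44, became −0.27 and did not pass. It passed without either array of 4 weeks or without replicate 2 of 12 weeks (limma, adjusted p = 0.0469, 0.0469 and 0.0472). Without replicate 2 of both later ages, the mean at 4 weeks, 0.49, passed (limma, adjusted p = 0.049). A second probe had means of 0.28, 0.34 and −0.36, also lowest at 30 weeks. At 30 weeks, when 39.1% of all genes were called, Pf4 rose (0.55) and Itga2b fell (−0.90) among the 6 platelet genes tested. Their summed linear levels on the 3 arrays were 1361, 1035 and 1267 in knockout nodes and 1140, 1087 and 1089 in the pools, and the part of platelets in the Vwf and Pecam1 values was not tested.

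**Figure D2:**
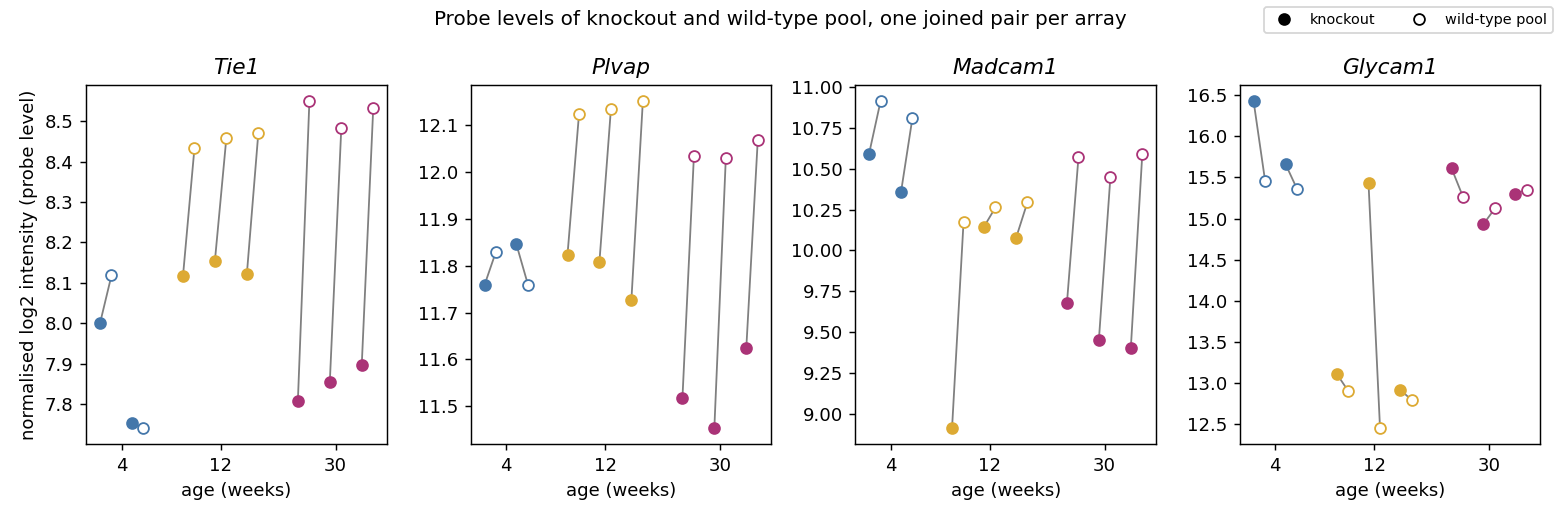
Normalised log2 intensity of 1 probe for each of Tie1, Plvap, Madcam1 and Glycam1 (vertical axes, each with its own range) by age in weeks, with filled points for knockout nodes, open points for the wild-type pools and a line that joins the pair of an array. At 30 weeks every knockout level of Tie1, Plvap and Madcam1 lies below every pool level, and the Glycam1 pairs of that age lie close together.

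Madcam1 was lower in the knockout node than in the pool on all 8 arrays after the loess normalisation. The ratios were −0.32 and −0.46 at 4 weeks, −1.26, −0.12 and −0.22 at 12 weeks, and −0.89, −0.99 and −1.19 at 30 weeks. At 30 weeks the mean was −1.02 ± 0.19 (SE), a fold of 0.492, and passed (limma, adjusted p = 0.00428). The levels there were 9.68, 9.45 and 9.40 in knockout nodes, against 10.57, 10.45 and 10.59 in the pools. Neither 4 weeks (−0.39, adjusted p = 0.276 in limma) nor 12 weeks (−0.53, adjusted p = 0.135 in limma) passed. At 12 weeks a single array carried most of the difference, its knockout node having a level of 8.92, against 10.14 and 10.07 in the other two. With median centring the ratios of the younger ages were 0.49 and 0.06, that is 0.00 and −0.35 relative to the median of all genes, so the side of 0 at 4 weeks rests on the scaling.

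Glycam1, the secreted mucin of the same venules, did not pass at any age. Its ratios were 0.97 and 0.30 at 4 weeks, 0.21, 2.98 and 0.12 at 12 weeks and 0.35, −0.19 and −0.05 at 30 weeks. The fitted means of 0.63, 1.10 and 0.04 had standard errors of 0.58, 0.48 and 0.48 (limma, adjusted p = 0.487, 0.191 and 0.959). At 30 weeks, where Madcam1 was at 0.492 of its pool, the 95% interval of Glycam1 ran from −1.05 to 1.13 on the log2 scale, which does not show that it kept its level. The array with 2.98 widens the error of every age, since the fit shares 1 error among them. Without it and replicate 2 of 30 weeks, Glycam1 was 0.63 at 4 weeks and passed (limma, adjusted p = 0.0197), 0.17 at 12 weeks and 0.15 at 30 weeks, and the last of these did not pass (limma, adjusted p = 0.49).

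The levels of Glycam1 fell into 2 ranges that did not follow genotype. Its levels in knockout nodes were 16.43 and 15.66 at 4 weeks, 13.11, 15.43 and 12.91 at 12 weeks and 15.61, 14.93 and 15.30 at 30 weeks. In the pools they were 15.46 and 15.36 at 4 weeks, 12.91, 12.45 and 12.79 at 12 weeks and 15.26, 15.12 and 15.35 at 30 weeks. The 5 low samples were the 12-week pools on all 3 arrays and the knockout nodes of replicates 1 and 3 of that age. Those 5 samples were also the ones with a low level of Xist, the RNA that coats the inactive X chromosome of female cells, and the ones in which the Y-linked gene Ddx3y was well above background.

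Over the 11 samples with Xist at 12.60 or more, Glycam1 lay between 14.93 and 16.43. Over the 5 samples with Xist at 7.88 or less, it lay between 12.45 and 13.11. The labels give no sex. Age and the sex-linked transcripts went together in all samples but 1, and the part of each in the Glycam1 level was not tested. The exception was the knockout node of replicate 2 of 12 weeks, with high Xist and a Glycam1 level of 15.43, in the upper range. Madcam1 did not divide in this way, with levels of 9.40 to 10.91 in the samples with high Xist and 8.92 to 10.29 in those with low Xist. Of 10 other genes of these venules, 1 divided without overlap, Cd34, a sialomucin of blood vessels. Its levels were 11.49 to 13.44 where Xist was high and 11.17 to 11.40 where Xist was low. The level of 11.49 was that of the same exception, the knockout node of replicate 2 of 12 weeks. It lay just above the other samples of 12 weeks and below every sample of the other ages, the lowest of which had 11.595. The part of age and of the sex-linked transcripts in the Cd34 level was not tested. The other genes of that list overlapped, among them Chst4, a sulfotransferase that acts on mucins of these venules, with 6.90 to 7.53 and 6.79 to 7.52.

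**Figure D3:**
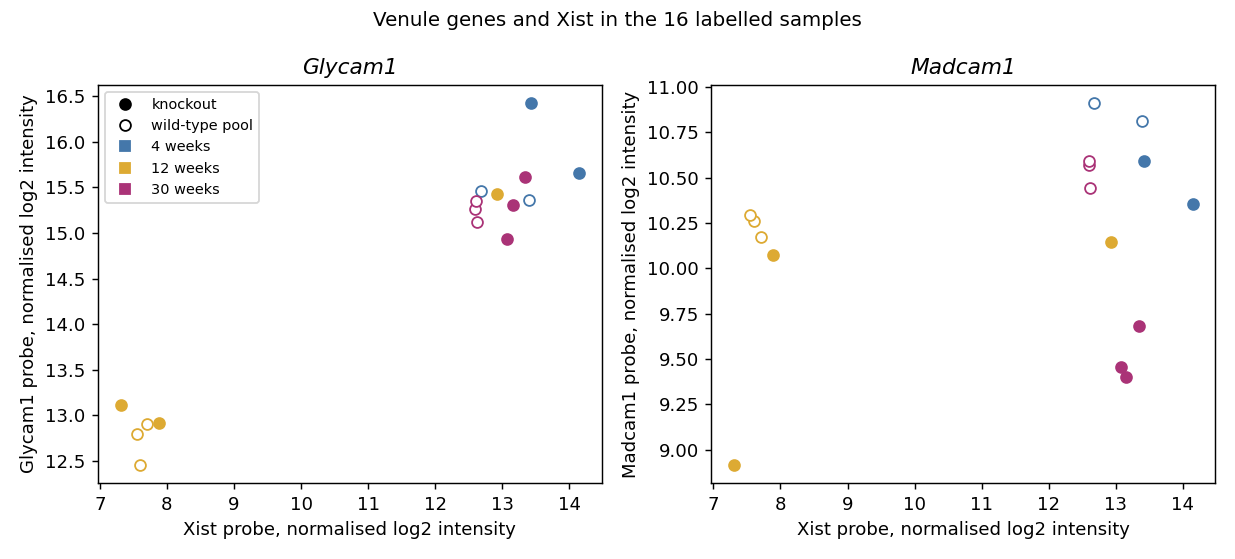
Normalised log2 intensity of the Glycam1 probe (left) and the Madcam1 probe (right) against that of the Xist probe in the 16 labelled samples, 8 knockout nodes (filled) and 8 wild-type channels (open), coloured by age. Glycam1 forms a low group of 5 samples, all of 12 weeks, and a high group of 11, while the Madcam1 levels of the samples with low and high Xist overlap.

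The venule and pan-endothelial genes were then set side by side on each array. At 30 weeks the pan-endothelial median was −0.33, −0.56 and −0.38, and the mean of Glycam1 and Madcam1 was −0.27, −0.59 and −0.62, a difference of venule mean minus pan-endothelial median of −0.07 ± 0.15 (SD, n = 3). At 4 weeks that difference was −0.07 ± 0.15 (SD, n = 2), and at 12 weeks 0.37 ± 0.87 (SD, n = 3). The mean hides that the 2 venule genes lay apart. Madcam1 was below all 8 pan-endothelial genes on 6 of the 8 arrays and below 5 of them on the other two. Glycam1 was above at least 5 of the 8 on every array. Over the 8 arrays the ratios of the 28 pairs of pan-endothelial genes had a median Pearson correlation of 0.56, with a range of −0.56 to 0.93. Glycam1 and Madcam1 had 0.63. These arrays share slides and ages, and may share pools.

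No member passed in a difference between ages. Xist was low in all 12-week samples but 1 and high in those of 4 and 30 weeks. The part of age and of the sex-linked transcripts in these differences was not tested. The 4-week and 12-week arrays also differ in slide, scanner, version of the scanner software and number of mice in the pool. Age cannot be told apart from these in the earlier difference. For 12 minus 4 weeks, where 6.98% of all genes passed, Emcn came nearest at −0.56 (limma, adjusted p = 0.0543), with Plvap at −0.36 (limma, adjusted p = 0.0687). For 30 minus 12 weeks, where 0.777% passed, Tie1 had −0.34 (limma, adjusted p = 0.0868) and Tek −0.54 (limma, adjusted p = 0.097). Without replicate 1 of 12 weeks, 2765 of all 18411 genes passed in the later difference. Among them were 4 members, Tie1 at −0.34, Tek at −0.67, Madcam1 at −0.85 and Cdh5 at 0.48. Slide 2 held all 12-week arrays and replicate 1 of 30 weeks. With slide as a fixed block the difference between 30 and 12 weeks was −0.42 for Tie1, −0.54 for Tek and −0.36 for Madcam1. There replicate 1 alone stands for 30 weeks, so only these sizes are given. With slide as a random block, whose fitted correlation was −0.259, Tie1 (−0.32; limma, adjusted p = 0.0267), Tek (−0.54; limma, adjusted p = 0.0243) and Vwf (−0.81; limma, adjusted p = 0.033) passed in that difference. Of all 18411 genes, 2339 passed with that block, against 143 in the main fit. A negative correlation makes the errors of means within a slide smaller, so no conclusion is drawn from these calls.

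The ratios ran with the base composition of the probes. Over all passing probes, the ratio fell with the share of G and C on every array, with Pearson correlations of −0.12 to −0.32. Among the 14 member probes the correlation of the mean ratio with that share was −0.46 at 4 weeks, −0.52 at 12 weeks and −0.82 at 30 weeks, a description over probes of which some share a gene. Cdh5 and Kdr, with 35%, were above 0 at 30 weeks, and Madcam1 and Tie1, with 55% and 53.3%, were the lowest. The brighter Cdh5 probe has 35% G and C and the other 45%. For Tek the composition is alike, 41.7% for the probe at −0.56 and 40% for the probe at 0.23.

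When each array was corrected for this trend, the ratios of the members at 30 weeks moved toward each other. Madcam1 was −0.89 (limma, adjusted p = 0.00635), Tie1 −0.54 (limma, adjusted p = 0.000904), Plvap −0.40 (limma, adjusted p = 0.00254), Tek −0.55 (limma, adjusted p = 0.00346) and Pecam1 −0.48 (limma, adjusted p = 0.0127). Cdh5 was 0.45 (limma, adjusted p = 0.0306), so that 6 members still passed at 30 weeks. At 12 weeks none did, with Tie1 at −0.25 (limma, adjusted p = 0.0573) and Plvap at −0.29 (limma, adjusted p = 0.0569). The correction was added after the values were seen.

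**Figure D4:**
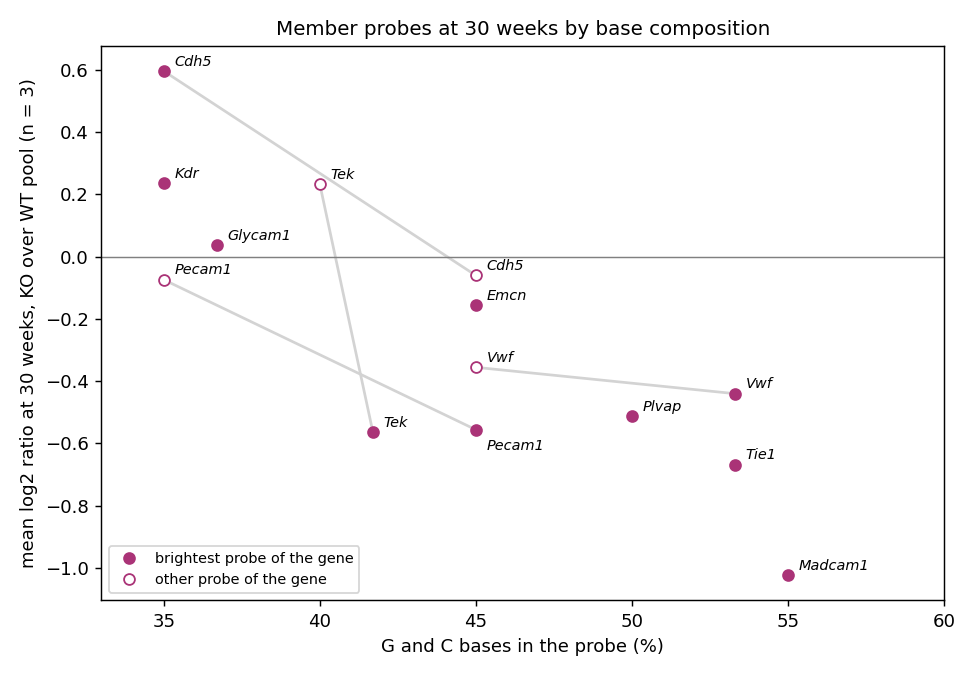
Mean log2 ratio of knockout over wild-type pool at 30 weeks (vertical axis, 3 arrays) against the percentage of G and C bases of the probe (horizontal axis) for the 14 member probes that passed the filter, with filled points for the brightest probe of a gene, open points for its other probes and lines joining probes of 1 gene. The ratios fall from 0.60 for Cdh5 at 35% to −1.02 for Madcam1 at 55%, and the 2 Tek probes differ in sign at nearly equal composition.

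A second list of 25 endothelial genes held calls in both directions. At 4 weeks 3 rose and 2 fell, beside 15.3% of all genes called higher and 7.38% called lower. Among the 5 were the transcription factor Erg (1.14), the junction protein Esam (−0.42) and Gpihbp1, which anchors lipoprotein lipase in capillaries (−0.79). At 12 weeks, when 2.61% of all genes were called, none of the 25 passed, Esm1 having the smallest p (0.53; limma, adjusted p = 0.0704). At 30 weeks 5 rose and 7 fell, beside 20.7% of all genes called higher and 18.4% called lower, with a median of 0.03, the same as over all genes. Egfl7, a secreted protein of endothelial cells, was at −0.76, and Eng, a coreceptor for transforming growth factor beta, at −0.67. Ptprb, the phosphatase that acts on Tek, rose (0.87).

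Of 10 other genes of high endothelial venules, none rose and 4 fell at 30 weeks, beside 18.4% of all genes called lower, with a median of −0.37. At 4 weeks, when 15.3% of all genes were called higher, Enpp2, the enzyme that makes lysophosphatidic acid, rose (1.18). So did Gcnt1, a branching enzyme of sugar chains, with log2 ratios far apart, 5.07 on replicate 1 and 2.43 on replicate 2. Its pool was not well above background on either array, with levels of 6.78 and 8.45, so the size of the rise is not known. The level of Chst4 was below that of the pool on all 8 arrays, and it was the gene of this list that fell at 12 weeks (−0.53; limma, adjusted p = 0.0319). At 30 weeks Podxl, a sialomucin, was at −0.61 (limma, adjusted p = 0.00149), Chst4 at −0.48 (limma, adjusted p = 0.00403) and Enpp2 at −0.48 (limma, adjusted p = 0.00562). The Podxl probe was dim, with knockout levels of 6.35, 6.62 and 6.34 at that age. On replicate 2 the knockout was not well above background for it. Fut7, the fucosyltransferase of selectin ligands, which leukocytes also make, was at −0.55 (limma, adjusted p = 0.0161).

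**Figure D5:**
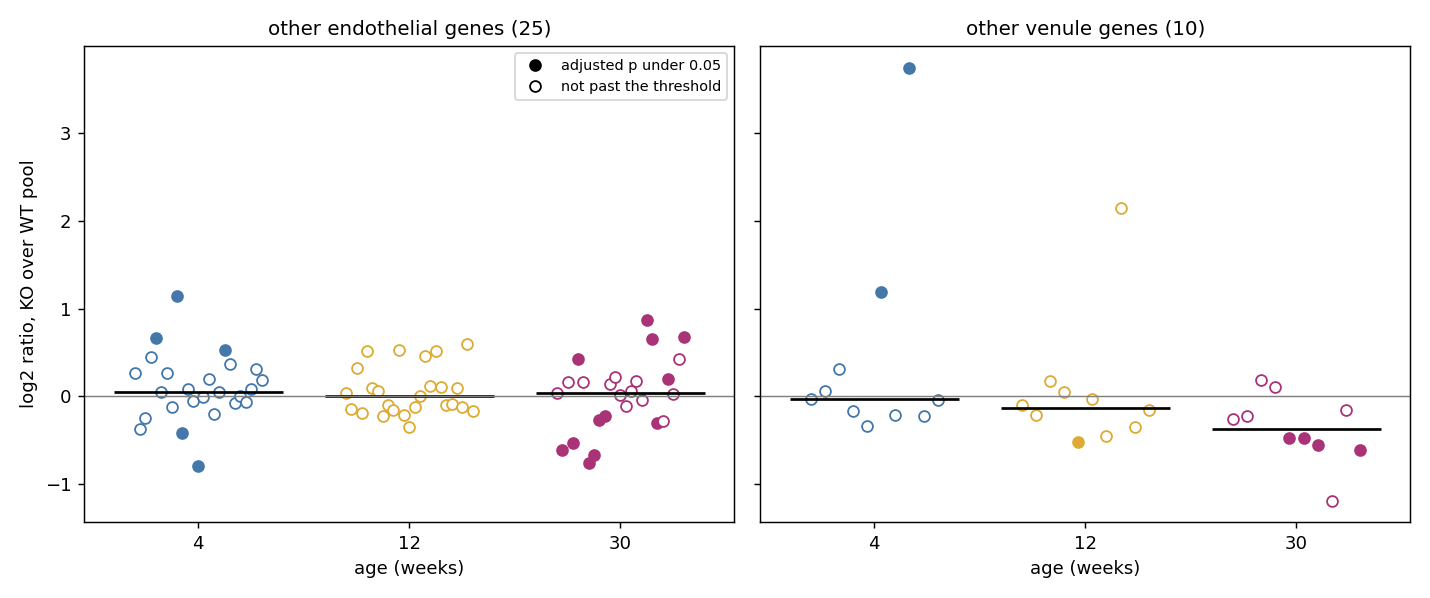
Log2 ratio of knockout over wild-type pool (vertical axis) by age in weeks for 25 other endothelial genes (left) and 10 other venule genes (right), 1 point for each gene, filled where the adjusted p was under 0.05, with a bar at the median. At 30 weeks the endothelial genes lie on both sides of 0 with a median of 0.03, and the venule genes have a median of −0.37.

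The genes of the integrin that binds Madcam1 changed in both directions. For scale, 22.7% of all genes were called at 4 weeks, 2.61% at 12 weeks and 39.1% at 30 weeks. At 4 weeks Itga4 rose (1.29) and Itgb7 fell (−0.61), and at 30 weeks Itgb7 fell (−0.54) while Itga4 did not pass. Neither passed at 12 weeks, where Itgb7 was at −0.38 (limma, adjusted p = 0.0894). Of the endothelial adhesion genes Sele, Selp, Vcam1 and Icam1, 3 were measured and none passed at any age, the smallest p being that of Selp at 12 weeks (0.26; limma, adjusted p = 0.0918) and of Vcam1 at 4 weeks (0.29) and 30 weeks (−0.22). Of 8 genes of the lymphotoxin pathway, Nfkb2, a target and carrier of that signal, fell at 12 weeks (−0.43) and 30 weeks (−0.58). Its ligand gene Tnfsf14 fell at 30 weeks (−0.63) and the receptor gene Ltbr rose (0.45). None of the 8 passed at 4 weeks, where their median was −0.13 and Nfkb2 was at −0.22 (limma, adjusted p = 0.152).

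Of 7 growth factor genes for vessels measured, Vegfc (1.15) and Vegfa (0.59) rose and Vegfb (−0.32) fell at 4 weeks. Beside them, 15.3% of all genes were called higher and 7.38% lower at that age. Vegfa (0.32) and Apln (0.29) rose at 30 weeks, beside 20.7% of all genes called higher. None of the 7 passed at 12 weeks, where 2.61% of all genes were called and Apln was at 0.14 (limma, adjusted p = 0.236). Among 10 genes of the pericytes and smooth muscle cells that wrap vessels, Tagln fell (−1.04) and Rgs5 rose (0.41) at 4 weeks. Of these 10, Myh11 (−1.03) and Des (−0.68) fell at 12 weeks, beside 1.37% of all genes called lower. At 30 weeks 4 fell and 1 rose, beside 18.4% of all genes called lower and 20.7% called higher. Myh11 was at −1.09, Des at −1.02 and Acta2 at −0.52.

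Markers of other cells and tissues were also read. At 4 weeks, when 15.3% of all genes were called higher, 4 of 6 genes of lymphatic endothelium rose. Lyve1 was at 1.71, Mmrn1 at 0.98 and Prox1 at 0.73. Also 5 of 8 genes of reticular fibroblasts rose, with Postn at 1.79, Lum at 1.36 and Dcn at 1.33. Genes of fat cells had a median of −1.26 at 4 weeks and −1.10 at 12 weeks, against −0.02 at 30 weeks, and the summed linear levels of all 8 ran from 3683 to 29774 in knockout nodes and from 10051 to 22453 in the pools. At least 4 of 6 acinar genes were above background in every sample, with summed levels of 689 to 1347830 in knockout nodes and 745 to 270189 in the pools. The part of these tissues in the vessel values was not tested. Among the 3 arrays of 30 weeks, replicate 2, the one with the high acinar ratio, had the lowest ratio of Vwf, Pecam1, Plvap, Cdh5, Kdr, Emcn and Glycam1, the highest of Tie1 and Tek, and the middle one of Madcam1.

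Among 14796 genes with values on all 8 arrays, those whose ratios followed the mean of the pan-endothelial genes most closely were Spc25, Scaf11, Adam33, Rbm48 and Myo1e, with Pearson correlations of 0.98 each over 8 arrays. Those closest to Glycam1 were Zfp41 (0.98), Igkv3-4 (0.97), Aplnr (0.97), Ess2 (0.97) and Mx1 (0.96), a pattern in which 1 array, at 2.98, lies far above the rest. With 8 arrays, 294 genes exceeded 0.9 with the first pattern and 41 with the second.

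Promoters from RefSeq (GRCm38.p6), 250 bases before to 50 after a gene's start, were available for 6 members, Tek, Tie1, Emcn, Kdr, Glycam1 and Madcam1. They were searched on both strands for TTCG, the letters of the half-site that Deaf1 is known to bind. The promoters of Tie1 and Kdr held 1 match each and the other 4 none, that is 33.3%, and 44.7% of all 32851 promoters held at least 1. A match in such short letters is a description and not a binding site.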

How the data were processed

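Spot and background intensity and processed signals were taken from the deposited scanner files. Per the file headers, Agilent Feature Extraction wrote them, version 9.5.3.1 at 4 weeks and version 10.2.1.3 at the later ages. Per the file headers they also hold the log10 of red over green processed signal, which was not used. The deposited series table held, by comparison, log2 values made by the authors from the processed signals, Cy5 over Cy3 (Pearson's r of 1 on each array), so its scale and direction are known. It was not centred, with medians of −0.10, −0.21, −0.13, −0.05, −0.09, −0.12, 0.15 and −0.13 in order of age and replicate, and served as an alternative. Per the labels' protocols, 1 µg of Trizol and RNeasy total RNA was amplified linearly before labelling.

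Mean signals were background corrected (normexp, offset 50) and loess-normalised within arrays, control spots at weight 0, using limma 3.58.1 (R 4.3.3). Levels are from Aquantile normalisation of the 2 channels. Spots of a probe were averaged without outlier flags. A probe was kept if, for some age, 1 channel exceeded background on every array (27463 probes), and the brightest stands for its gene. The model had a mean for each age over 8 arrays (5 residual and 3.4 prior degrees of freedom), and the ratio at each age and the differences of 12 minus 4 and 30 minus 12 weeks were tested, two-sided. The script was tested on simulated data. RefSeq GRCm38.p6 served for names only: 24375 probes by accession, 6301 by symbol, 2422 by synonym, and 8076 kept the file's name. Positions are those of the 4-week files (mm8). An annotation of that build was not used here.

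All members were named. From each other list, counts and up to 3 called genes of smallest p were named. Fut7, Cd34, Xist, Ddx3y and the corrections for base composition were chosen after their values were seen, and members and lists with earlier results of these data known. Replicate numbers did not pair the samples: deviations of arrays with the same number correlated at −0.08 to 0.24. Replicates are separate mice per the labels. Alternatives were other normalisations, filters, probe rules, slide and replicate blocks, and leaving out arrays. The result of 1 listed gene is not reported here.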

Additional observations from a re-analysis of the deposited data

Results flagged for a closer look

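Vwf, Tek and Emcn drew attention. By their brightest probes, every array of 30 weeks lay on the opposite side of 0 from every array of 4 weeks. The difference was not tested, and the share of all genes with this pattern was not counted. The mean ratio at 30 weeks minus that at 4 weeks was −0.93 for Vwf, −0.73 for Tek and −0.60 for Emcn on the log2 scale. The second Tek probe lay above 0 at both ages, with means of 0.25 at 4 weeks and 0.23 at 30 weeks. For that probe, the pool was not well above background on either array of 4 weeks. The 30-week and 4-week arrays also differ in slide, scanner, version of the scanner software and number of mice in the pool. Age cannot be told apart from these.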

How the results depend on the processing

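Over 50 results and 18 alternatives, 732 of 830 recomputed values kept their direction and their side of the threshold. Those 50 are the ratios of the 10 genes at each age and between ages. With median centring only, values on the other side of 0 were Emcn 0.48 at 12 and 0.12 at 30 weeks, Madcam1 0.49 at 4 and 0.059 at 12 weeks, Pecam1 0.64 at 4 and 0.41 at 12 weeks, Tie1 0.37 at 4 and 0.12 at 12 weeks, Plvap 0.37 and Tek 0.22 at 12 weeks, and, for 30 minus 12 weeks, Cdh5 −0.087 and Kdr −0.20. Less the median of all genes under that setting, Emcn at 12 weeks and Pecam1 at 4 and 12 weeks stayed on the other side (0.07, 0.15 and 0.00). Kdr for 30 minus 12 weeks did too, since the median of that difference over all genes was −0.14. Elsewhere Glycam1 at 30 weeks was −0.00021 with the authors' deposited ratios and −0.070 with the correction for base composition, which also gave Tie1 0.049 at 4 weeks and Emcn 0.012 for 30 minus 12 weeks, and the mean of all probes gave Tek 0.016 at 12 weeks. Members passing at 4 weeks were 8 with median centring, 2 with deposited ratios, 4 with slide as a random block (fitted correlation −0.259) and 3 without replicate 2 of both later ages. At 12 weeks they were 5, 0 and 7 under the first 3 of these settings and 0 with the base correction. For 12 minus 4 weeks they were 1 without background subtraction and 3 with the random block, and for 30 minus 12 weeks 3 with the random block. Genes passing at 4 weeks, 4179, were 9749 with median centring, 6493 with deposited ratios and 6617 with the random block. At 12 weeks the 480 became 10307, 180 and 8977, with 313 for the mean of probes and 1846 without both replicates 2. For 12 minus 4 weeks the 1285 became 51, 2195 and 4480, with 792 for the mean of probes. For 30 minus 12 weeks the 143 became 7, 2 and 2339, with 333 without both replicates 2. The counts with the random block rest on its negative correlation, and no conclusion is drawn from them. No count is given for slide as a fixed block, where 1 array stands for 30 weeks. A replicate block left 359 genes for 12 minus 4 weeks and 0 for 30 minus 12 weeks, and no member in either. The 30-week count stayed between 3939 and 7953 with arrays left out. Leaving out arrays gave 499 to 5178 genes at 4 weeks, 18 to 1852 at 12 weeks, 1 to 1808 for 12 minus 4 weeks and 0 to 2765 for 30 minus 12 weeks, and 0 to 3, 0 to 3, 0 to 1 and 0 to 4 members. It moved 0 into the range for Cdh5 (−0.38 to 0.055), Glycam1 (−0.47 to 0.96), Madcam1 (−0.35 to 0.22), Pecam1 (−0.34 to 0.022) and Vwf (−0.57 to 0.17) between 4 and 12 weeks. The same held for Emcn (−0.083 to 0.025) and Kdr (−0.027 to 0.20) between 12 and 30 weeks, for Plvap (−0.071 to 0.086) and Tie1 (−0.12 to 0.011) at 4 weeks, Pecam1 (−0.36 to 0.0046) and Tek (−0.15 to 0.11) at 12 weeks and Glycam1 (−0.12 to 0.15) at 30 weeks. Causes were not tested.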
